A study of Mus musculus with 2 samples.

Results

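The genes described here are 10 members of the Notch pathway: the 4 receptors Notch1, Notch2, Notch3 and Notch4, the 3 ligands Jag1, Dll1 and Dll4, and the 3 transcriptional targets Hes1, Hey1 and Heyl. They were taken by symbol from the 32285 genes of the deposited feature lists, and all 10 were present. The cells came from the hindlimb injury site of male C57BL/6J mice aged 8 to 10 weeks, 7 days after a dorsal burn and a cut through the Achilles tendon, a combination that leads to bone in soft tissue (heterotopic ossification). The control library came from mice with this injury and no radiation therapy, and the irradiated library from mice with the same injury and a single dose of 7 Gy aimed at the injury site. All mice had isoflurane anaesthesia and sustained-release buprenorphine. The series description points to irradiation on day 3, in wording that leaves the day uncertain, and how many mice contributed to a library is not stated. The cells were not sorted, and each group was 1 library, so every ratio below compares these libraries and has no replicate check. Intervals cover counting error only.

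Notch receptors are single-pass membrane proteins that bind Jagged or Delta-like ligands on a neighbouring cell. Ligand pulling exposes the receptor to ADAM proteases and then to gamma-secretase, and the freed intracellular domain enters the nucleus, binds RBPJ and switches on genes such as Hes1, Hey1 and Heyl. In vessels the pathway is known for arterial identity and tip-cell selection, where Dll4, Notch1 and Notch4 act in endothelial cells, and for the upkeep of mural cells, where Notch3 acts in pericytes and smooth muscle. In the epidermis Notch1 is known for driving the exit of basal cells into differentiation, and in connective tissue the pathway is known for holding back osteoblast and tendon cell maturation.

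Promoter sequences are shown for 4 members that the results below turn on: Notch1, whose level differed between the libraries in keratinocytes, Notch3, the mural receptor, Dll4, the endothelial ligand, and Jag1, which differed in macrophages. They are the 300 bases around the transcript start (250 before and 50 after) in RefSeq on GRCm38.p6, written 5′ to 3′ on the gene's strand, with each CACNAG match on either strand in capitals. The windows are chr2:26503773-26504072 on the minus strand for Notch1, chr17:32166841-32167140 on the minus strand for Notch3, chr2:119325534-119325833 on the plus strand for Dll4 and chr2:137116471-137116770 on the minus strand for Jag1.
Notch1: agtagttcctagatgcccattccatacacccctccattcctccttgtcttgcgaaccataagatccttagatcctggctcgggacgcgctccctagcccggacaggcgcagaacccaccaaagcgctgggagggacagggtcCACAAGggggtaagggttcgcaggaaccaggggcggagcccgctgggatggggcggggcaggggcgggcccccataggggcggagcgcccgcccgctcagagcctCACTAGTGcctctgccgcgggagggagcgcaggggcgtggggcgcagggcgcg
Notch3: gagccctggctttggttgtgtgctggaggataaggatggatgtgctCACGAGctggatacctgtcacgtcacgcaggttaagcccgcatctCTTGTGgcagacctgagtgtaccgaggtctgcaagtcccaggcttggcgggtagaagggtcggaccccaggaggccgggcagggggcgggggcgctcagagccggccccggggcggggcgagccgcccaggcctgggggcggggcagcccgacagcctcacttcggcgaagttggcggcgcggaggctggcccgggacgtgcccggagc
Dll4: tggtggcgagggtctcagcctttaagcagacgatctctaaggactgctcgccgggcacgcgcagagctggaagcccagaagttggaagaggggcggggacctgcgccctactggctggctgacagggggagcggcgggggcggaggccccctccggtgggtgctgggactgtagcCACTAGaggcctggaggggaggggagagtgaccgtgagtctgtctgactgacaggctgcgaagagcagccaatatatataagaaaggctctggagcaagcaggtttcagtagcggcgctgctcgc
Jag1: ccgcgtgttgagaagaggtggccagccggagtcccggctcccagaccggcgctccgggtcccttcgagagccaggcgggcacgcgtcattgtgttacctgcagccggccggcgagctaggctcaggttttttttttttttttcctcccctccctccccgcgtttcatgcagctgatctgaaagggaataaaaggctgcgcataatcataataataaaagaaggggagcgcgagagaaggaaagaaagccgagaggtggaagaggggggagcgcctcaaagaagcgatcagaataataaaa

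CACNAG is the N-box, a sequence that Hes proteins are known to bind. In these windows it matched 3 times in Notch1, at 108, 3 and 1 bases before the start with the last pair overlapping on opposite strands, 2 times in Notch3, at 204 and 159 bases before the start, 1 time in Dll4, at 75 bases before the start, and not in Jag1. Promoters were found for 7 of the 10 members, in 8 windows because Dll1 had a pair of starts. The 3 members without one were the targets Hes1, Hey1 and Heyl, so the 8 windows are all of receptors and ligands. No motif was sought in the promoters of these targets. Of the 8 windows, 5 held the N-box on either strand, against 42.5% of all 32841 mouse promoter windows of this length. The RBPJ core TGGGAA matched in 0 of the 8 windows, against 25.6% of all promoters, and the E-box CACGTG, which reads the same on both strands, in 0 of the 8, against 7.15%. These are matches of letters in short windows and no evidence of binding.

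On the GRCm38 assembly with GENCODE M21 models, all 10 are protein-coding genes. The receptors lie at chr2:26457903-26516663 (Notch1, minus strand), chr3:98013527-98150361 (Notch2, plus strand), chr17:32120820-32166852 (Notch3, minus strand) and chr17:34564268-34588503 (Notch4, plus strand). The ligands lie at chr2:137081456-137116644 (Jag1, minus strand), chr17:15367354-15376872 (Dll1, minus strand) and chr2:119325784-119335962 (Dll4, plus strand). The targets lie at chr16:30064384-30067796 (Hes1, plus strand), chr3:8663359-8667256 (Hey1, minus strand) and chr4:123233556-123249875 (Heyl, plus strand). The Notch1 promoter window above lay inside the GENCODE span of the gene, because that annotation also holds a start further upstream.

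After filtering, 8750 control cells (median 13278 unique molecular identifiers, UMIs, per cell) and 7045 irradiated cells (median 10087) were kept, and 21 kept barcodes occurred in both libraries. Cells were clustered without any of the 59 pathway genes and named "-like" from marker genes, so the Notch genes did not shape the classes. In 10 classes both libraries held 50 cells or more: macrophages and monocytes (1904 control and 2586 irradiated cells), keratinocytes (2133 and 1269), mesenchymal cells (2343 and 632), neutrophils (836 and 1246), endothelial cells (586 and 357), dendritic cells (234 and 234), pericytes and smooth muscle (271 and 177), T and NK cells (141 and 261), Schwann cells (103 and 130) and osteoclasts (115 and 73). All these names stand for cells that are like the type by their markers. The labels call the tissue tendon injury, and the mesenchymal class carried the tendon genes Tnmd (186 and 195 CPM, the UMIs of a gene summed over the cells of a class per 1000000 UMIs of that class and library, given in the order control and irradiated), Scx (100.2 and 146) and Mkx (25.9 and 32.2). RNA of Krt14 and Col1a1 in cells that should lack it was higher in the control library, while Krt5 in T and NK cells was at 70.4 and 147 CPM. The neutrophil gene S100a9 was higher in the irradiated library in several classes. It read 43.1 and 137 CPM in endothelial cells, 27.9 and 107 in mesenchymal cells and 49.9 and 271 in pericytes and smooth muscle. In T and NK cells S100a9 was at 164 and 138 CPM. Krt14, a basal keratin, read 417 and 103 CPM in neutrophils, 176 and 33.3 in endothelial cells and 772 and 36.5 in Schwann cells, and Col1a1 read 519 and 85.7 in endothelial cells. A ratio was called higher or lower in the irradiated library where the gene had at least 20 UMIs, differed at least 1.5-fold and had a 95% counting interval that left out equality.

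The receptors differed in their leading cells, except that endothelial cells led for both Notch1 and Notch4 in the control library. Notch1 was highest in endothelial cells of the control library, at 181 CPM (95% interval 173 to 189), where its interval overlapped that of Schwann cells (166 CPM, 145 to 189), and keratinocytes followed at 128. In the irradiated library keratinocytes led at 287 CPM (281 to 292), ahead of endothelial cells at 230.5 (218 to 243). Dendritic cells held the lowest Notch1 level in both libraries, at 10.8 and 9.09 CPM, and osteoclasts overlapped them in the control at 10.9. Notch2 was highest in myeloid cells. It read 479 CPM (452 to 507) in control and 460.1 (442 to 478) in irradiated neutrophils, followed by macrophages and monocytes at 210.5 and 225 and dendritic cells at 141 and 129.8, and was lowest in endothelial cells at 16.0 in both.

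Notch3 was concentrated in pericytes and smooth muscle, with 689 CPM (664 to 714) in the control library and 675 (648 to 703) in the irradiated one. These cells made up a small share of the tissue but held 47.2% and 58.2% of all Notch3 UMIs of the kept cells. After thinning every cell to 2000 UMIs, 71.5% of control and 69.0% of irradiated mural cells still had a Notch3 UMI (97.8% and 96.6% before thinning, at median depths of 13812 and 17621 UMIs). In neutrophils, which should lack it, the thinned shares were 0.216% and 0.0926%, at median depths of 2108 and 3109.5 UMIs before thinning. Keratinocytes had 39.2 and 29.8 CPM of Notch3, and the endothelial class 49.9 and 47.9. Nearly all of the endothelial value came from subclusters whose leading genes include several of another class, such as the pericyte gene Rgs5, and without them it was 3.71 and 3.14 CPM. Notch4 was an endothelial gene, at 46.7 CPM (42.9 to 50.8) and 63.4 (57.1 to 70.2). No other class with at least 20 Notch4 UMIs in a library exceeded 3.62 CPM, and endothelial cells held 72.0% and 69.1% of its UMIs.

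Among the ligands, Jag1 was spread over structural cells and Dll4 was not. Jag1 was highest in pericytes and smooth muscle, at 155 CPM (143 to 167) in the control library and 191 (177 to 206) in the irradiated one. In the control library Schwann cells (130.1 CPM, 112 to 151) and keratinocytes (127, 124 to 129.6) came next, and the Schwann interval overlapped both. By number of molecules keratinocytes held most of the Jag1, 62.3% and 59.3% of its UMIs in the control and irradiated libraries. Dll4, the Delta ligand of sprouting vessels, was at 77.8 CPM (72.8 to 83.0) and 101 (92.7 to 109) in endothelial cells, which held 88.6% and 84.8% of its UMIs. Dll1 was also highest in endothelial cells, at 26.5 and 37.2 CPM, followed by keratinocytes at 10.1 and 15.8, which held 55.2% and 66.0% of its UMIs.

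The targets followed different cell types. Hes1, a repressor of the bHLH family and the broadest of the targets, was detected with at least 14 UMIs in all 10 classes of each library. It was highest in Schwann cells of the control library (303 CPM, 275 to 334), ahead of endothelial cells (253, 244 to 262), and highest in endothelial cells of the irradiated library (428, 412 to 446), ahead of pericytes and smooth muscle (317, 298 to 336) and Schwann cells (290.1, 265 to 317), whose intervals overlapped. Hey1, an arterial repressor, was at 39.6 CPM (36.0 to 43.3) in control endothelial cells, overlapping Schwann cells at 34.2 (25.0 to 45.6), and at 59.7 (53.6 to 66.2) in irradiated endothelial cells. Heyl, its mural relative, was at 122 CPM (112 to 133) in control and 75.7 (66.8 to 85.3) in irradiated pericytes and smooth muscle. Hey1 was at 0 UMIs in dendritic cells and osteoclasts of both libraries, and Heyl at 0 in neutrophils of both, where the 95% intervals reached up to 1.48 and 0.665 CPM. For 8 of the 10 members the leading class was the same in both libraries, the exceptions being Notch1 and Hes1.

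**Figure D1:**
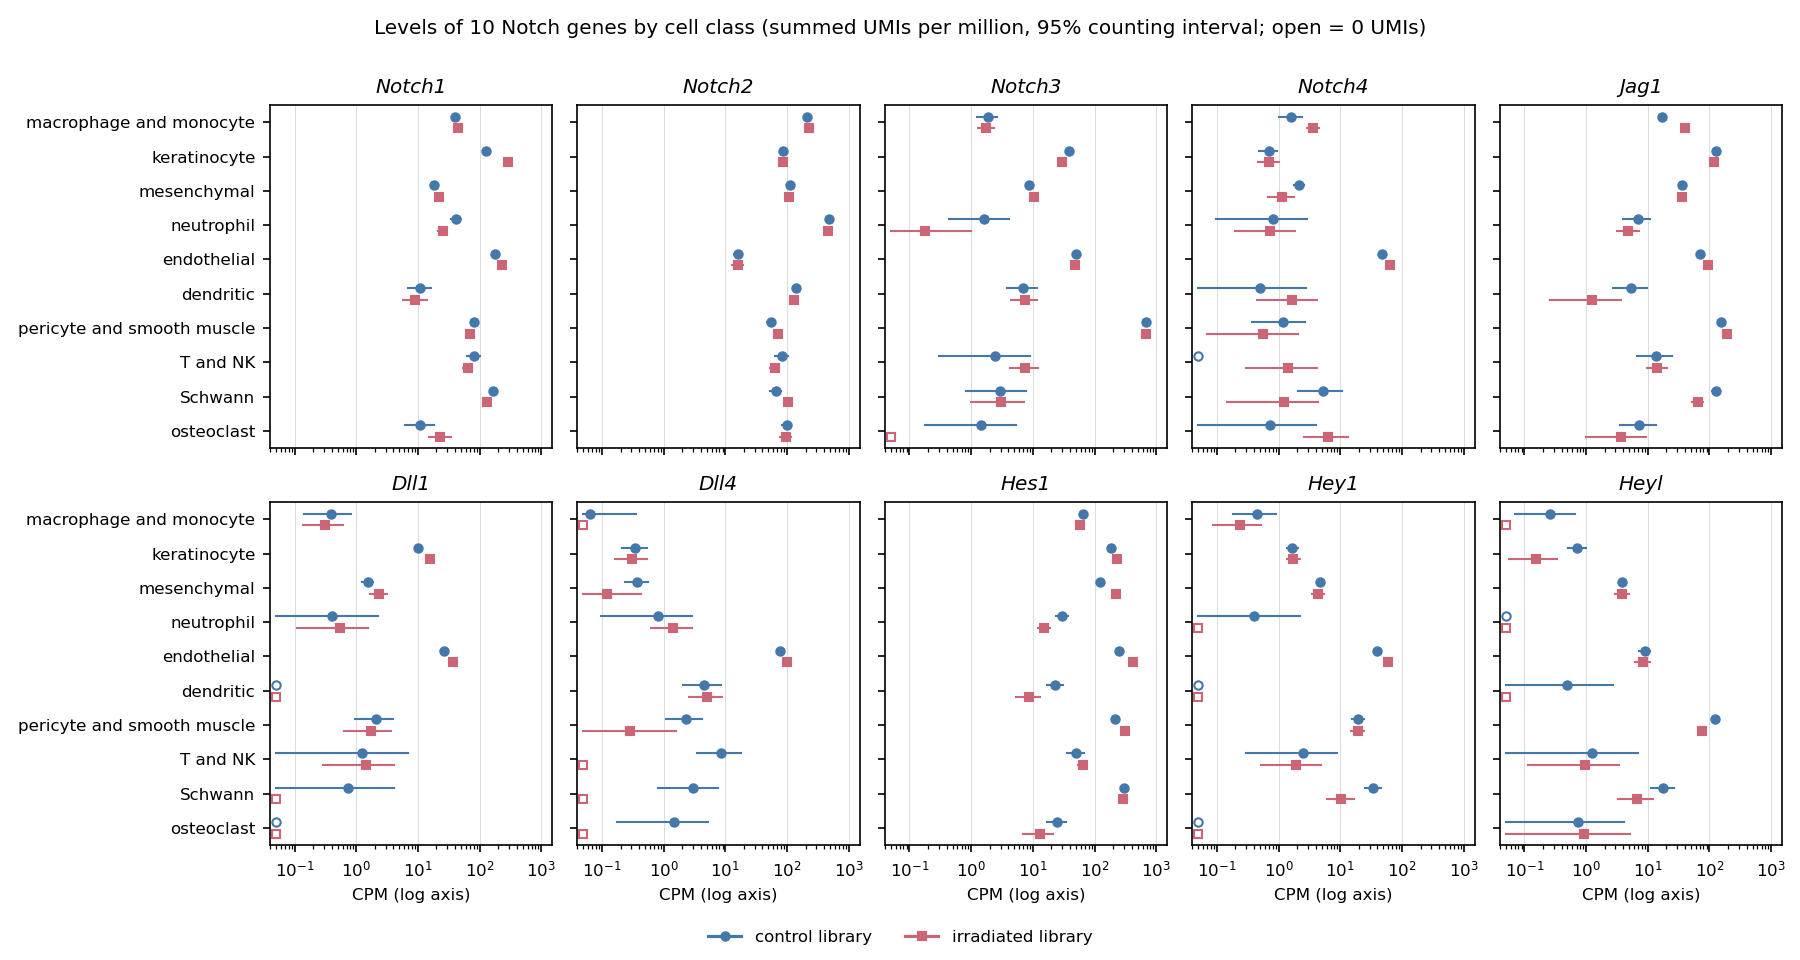
Levels of the 10 Notch genes in 10 cell classes. The x axis is CPM on a log scale, circles are the control and squares the irradiated library, lines are 95% counting intervals cut at the left edge where they reach beyond it, and open symbols there mark 0 UMIs. Notch3 and Heyl peak in pericytes and smooth muscle, Notch4, Dll1 and Dll4 in endothelial cells, and Notch2 in neutrophils, where it reads 479 and 460.1 CPM.

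Called ratios were first counted over the 6 classes that held 200 or more cells of each library, and ratios in the 4 smaller classes are given class by class. Of the 60 member-by-class pairs, 45 had at least 20 UMIs, and 8 were called higher and 5 lower in the irradiated library, with 32 neither. Over all 79973 gene-by-class pairs, 7.72% were called higher and 10.1% lower by the same rule. The share called higher was above this background and the share called lower was close to it, but with subclusters weighted alike in both libraries only 4 pairs were called higher. The 8 higher pairs were Notch1 and Dll1 in keratinocytes, Jag1 and Notch4 in macrophages and monocytes, Hes1 and Hey1 in endothelial cells, and Hes1 and Dll1 in mesenchymal cells. The 5 lower pairs were Heyl in keratinocytes, Notch4 in mesenchymal cells, Notch1 and Hes1 in neutrophils, and Hes1 in dendritic cells. By role, receptors were called higher in 2 and lower in 2 of 21 pairs, ligands higher in 3 and lower in 0 of 12, and targets higher in 3 and lower in 3 of 12.

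**Figure D2:**
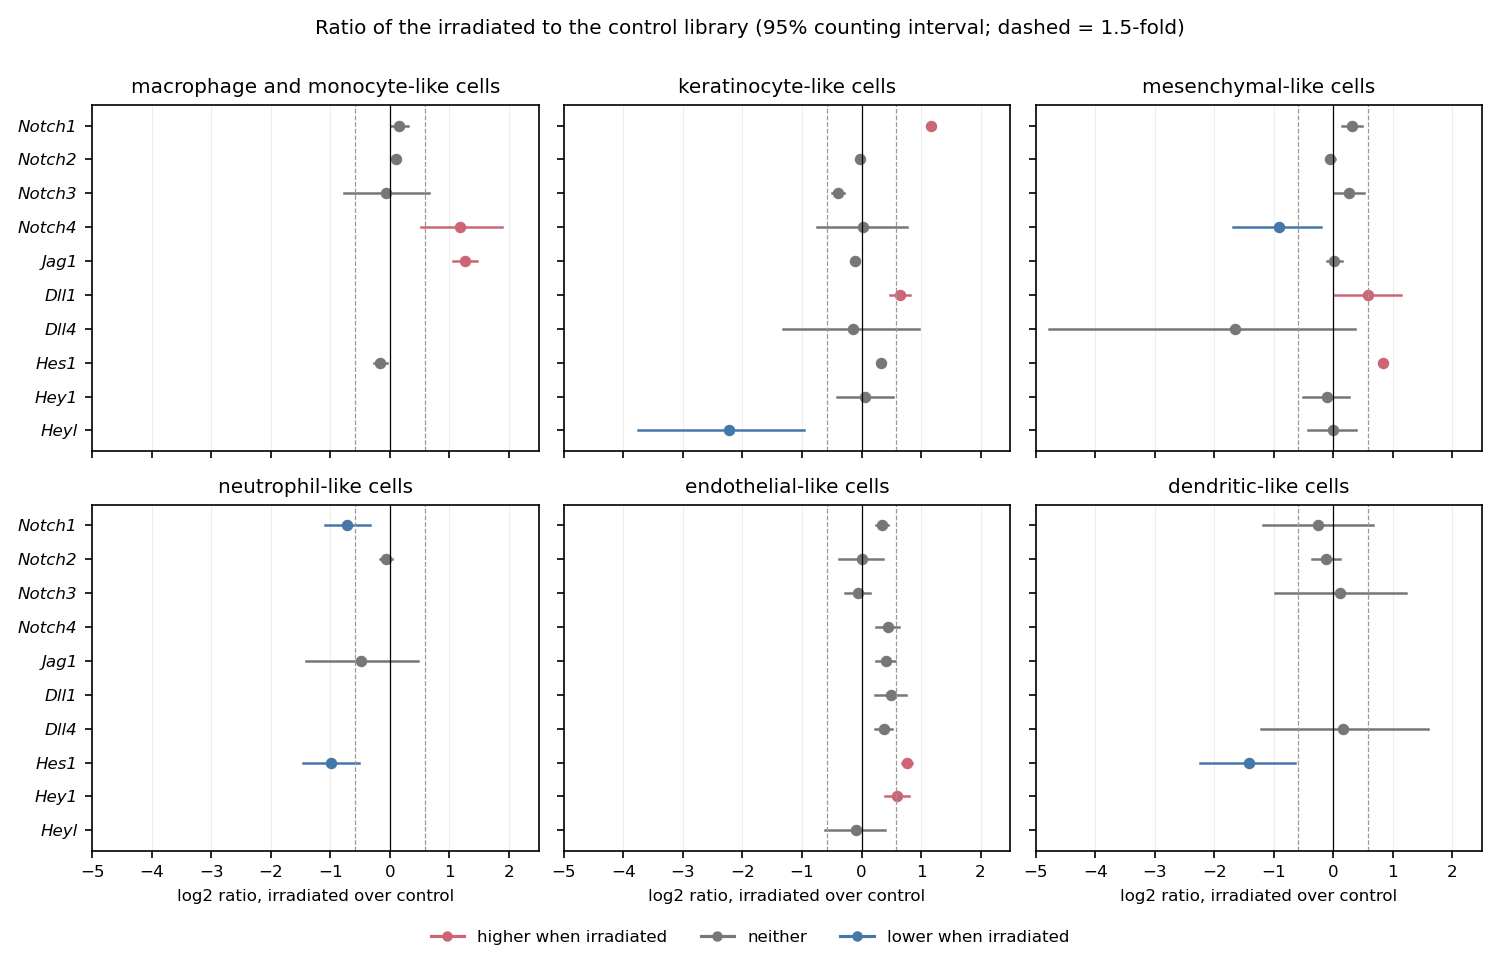
Ratio of the irradiated to the control library for each member in 6 cell classes. The x axis is the log2 ratio of CPM, lines are 95% counting intervals, dashed lines mark 1.5-fold and members with under 20 UMIs are not drawn. Jag1 (1.26) and Notch4 (1.18) in macrophages and monocytes and Notch1 in keratinocytes (1.16) lie furthest to the right among the called values, and Heyl in keratinocytes (-2.22) furthest to the left.

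Keratinocytes, the epidermal and hair follicle cells at the wound, carried 2.24 times as much Notch1 (in CPM) in the irradiated library. Notch1 was at 128 CPM (125 to 131) in the control library, from 7055 UMIs, and at 287 CPM (281 to 292) in the irradiated library, from 11051 UMIs, a log2 ratio of 1.16 (1.12 to 1.21). Of the 10 members in this class 2 were called higher and 1 lower, while 6.48% of all genes were called higher and 8.41% lower. After thinning to 2000 UMIs per cell, 21.1% (19.4 to 22.9) of control and 45.3% (42.6 to 48.2) of irradiated keratinocytes had a Notch1 UMI (73.2% and 89.6% before thinning, at median depths of 21241 and 25644 UMIs). In dendritic cells, the class with the lowest Notch1 level, the thinned shares were 2.65% and 2.24%, at median depths of 8271 and 10428 UMIs before thinning. The other epidermal receptors did not share the difference. Notch2 was at 86.4 and 85.4 CPM (log2 ratio -0.02, -0.08 to 0.05) and Notch3 at 39.2 and 29.8 CPM (-0.40, -0.50 to -0.29).

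The Notch1 difference ran through most kinds of keratinocyte. Notch1 was called higher in 11 of 14 subclusters and lower in 0. For single subclusters or clusters, here and below, the share of all genes called was not computed, so such counts have no background. In the basal-like subcluster Notch1 was at 166 and 424 CPM in the control and irradiated libraries, in the suprabasal-like subcluster at 85.1 and 215, and in a hair follicle-like subcluster with Lgr5 and Lhx2 at 211 and 550.0. The wound edge-like subcluster, which carried Krt6b and Krt16, had a smaller difference, at 83.4 and 138 CPM. The exceptions were a subcluster with Krt6b and dividing-cell genes (154 and 186 CPM), the sebaceous-like subcluster (27.8 and 22.8) and a subcluster with collagen genes that held 4 irradiated cells (59.3 and 41.2). The mix of keratinocytes differed between the libraries, the wound edge-like subcluster making up 15.6% of control and 5.52% of irradiated keratinocytes and the basal-like one 10.2% and 19.5%. With the subclusters weighted alike in both libraries, the Notch1 log2 ratio was 1.10.

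Apart from Heyl, which was under 1 CPM in both libraries, keratinocyte ligands and targets differed less than Notch1. Jag1 was at 127 and 117 CPM (log2 ratio -0.11, -0.16 to -0.06), called higher in 1 subcluster of dividing cells (77.5 and 123 CPM) and lower in 1 with Tspear and Sox6 (166 and 67.2). Dll1, the ligand of basal keratinocytes, was at 10.1 and 15.8 CPM and called higher (0.65, 0.48 to 0.82), and with the subclusters weighted alike the ratio was 0.32 and not called. Hes1 was at 186 and 233 CPM (0.32, 0.28 to 0.37), called higher in 6, lower in 1 and neither in 7 of the 14 subclusters. In a subcluster with Lgr5, Cxcl14 and Lhx2 it was at 315 and 543 CPM (0.78, 0.61 to 0.96), and in the sebaceous-like one at 90.8 and 36.2 (-1.33, -2.12 to -0.61). Heyl was at 0.726 and 0.156 CPM, from 40 and 6 UMIs, and called lower (-2.22, -3.75 to -0.97). Without the subclusters led by markers of other classes it was at 0.394 and 0.163 CPM and not called (-1.28, -2.88 to 0.09).

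**Figure D3:**
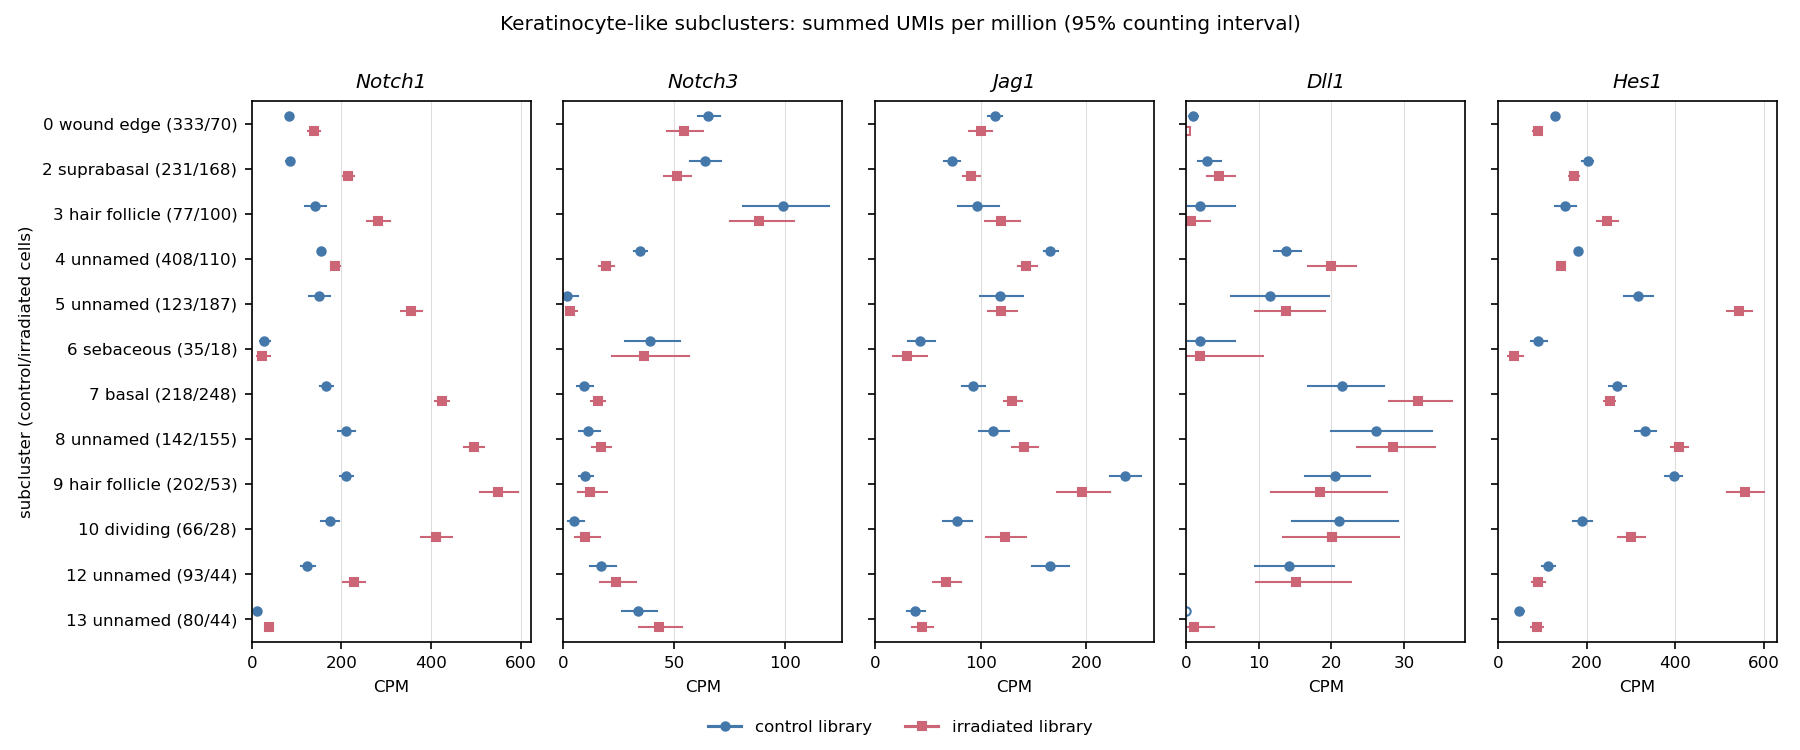
Notch1, Notch3, Jag1, Dll1 and Hes1 in 12 keratinocyte subclusters, leaving out those led by marker genes of another class. The x axis is CPM, circles are the control and squares the irradiated library, lines are 95% counting intervals and cell numbers are in the labels. Notch1 is to the right in the irradiated library in 11 of the 12, the sebaceous-like subcluster (27.8 and 22.8 CPM) being the exception, while Jag1 goes either way.

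In endothelial cells Hes1 and Hey1 were called higher in the irradiated library, and the Hey1 call was lost without the subclusters led by markers of other classes. All 10 had at least 20 UMIs, their median log2 ratio was 0.39 against 0.00 over all genes of the class, and 2 were called higher and 0 lower, with 8.55% of all genes called higher and 5.45% lower. Hes1 was at 253 CPM (244 to 262) and 428 (412 to 446), a log2 ratio of 0.76 (0.68 to 0.84). Hey1 was at 39.6 and 59.7 CPM (0.59, 0.39 to 0.80). The receptors Notch1 (181 and 230.5 CPM, 0.35) and Notch4 (46.7 and 63.4, 0.44) and the ligands Jag1 (71.5 and 94.8, 0.41), Dll1 (26.5 and 37.2, 0.49) and Dll4 (77.8 and 101, 0.37) stayed under 1.5-fold, with intervals that left out equality. Over 15 other settings Jag1 ranged from 0.03 to 0.43, Dll1 from 0.22 to 0.60 and Dll4 from 0.16 to 0.40. Notch1 ranged from 0.24 to 0.46 and Notch4 from 0.28 to 0.48. The median of the members was not recomputed with subclusters weighted alike. Notch2, Notch3 and Heyl had ratios of 0.00, -0.06 and -0.10 with intervals that held equality. Without the subclusters led by markers of other classes, Hes1 was still called higher (252 and 406 CPM, 0.69) and Hey1 was not (45.3 and 58.1 CPM, 0.36, 0.13 to 0.59). Summed over a list of 10 immediate early genes, the class read 3880.4 and 6481 CPM. The part of this in the Hes1 ratio was not tested.

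The vessel subclusters kept distinct ligand sets in both libraries. The arterial-like subcluster, with Gja5, Sema3g and Bmx, had the highest Jag1 (309 and 388 CPM), Dll4 (231 and 250.3) and Hey1 (208 and 234) of the 5 subclusters that no other class's markers led. The venous-like subcluster, with Ackr1 and Selp, had the highest Dll1 (58.5 and 56.5 CPM, against 40.6 and 52.1 in the arterial-like one), and the lowest Dll4 (24.0 and 18.2), Notch4 (8.01 and 5.04) and Hey1 (4.93 and 7.06). In the capillary-like subcluster, with Lpl and Timp4, 3 members were called higher in the irradiated library: Dll4 at 69.0 and 118 CPM (log2 ratio 0.77, 0.31 to 1.26), Notch4 at 49.1 and 88.8 (0.85, 0.31 to 1.43) and Hes1 at 356 and 578 (0.70, 0.50 to 0.91). The share of all genes called was not computed for single subclusters, so these calls have no background beside them. Hes1 was also called higher in the venous-like subcluster (255 and 491 CPM) and the arterial-like one (231 and 356), and not in a subcluster with Esm1 and Prnd (263 and 287) or in dividing cells (163 and 215). In the dividing cells, 36 and 11 in number, Dll4 was at 84.0 and 134 CPM and called higher, while Dll1 was called lower (18.5 and 5.36 CPM from 24 and 3 UMIs, -1.79, -4.16 to -0.07). Dll1 was called higher in the Esm1 subcluster (19.4 and 29.7 CPM, 0.61), Notch4 in the arterial-like one (87.7 and 136, 0.63) and Notch2 in the venous-like one (20.3 and 34.3, 0.75). Hey1 was called in 0 of these 5 subclusters, 1 of which had under 20 UMIs. The capillary-like subcluster made up 9.39% of control and 31.4% of irradiated endothelial cells, and the Esm1 subcluster 35.0% and 16.0%. With the subclusters weighted alike, the ratio of Hes1 was 0.59 and that of Hey1 0.23.

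**Figure D4:**
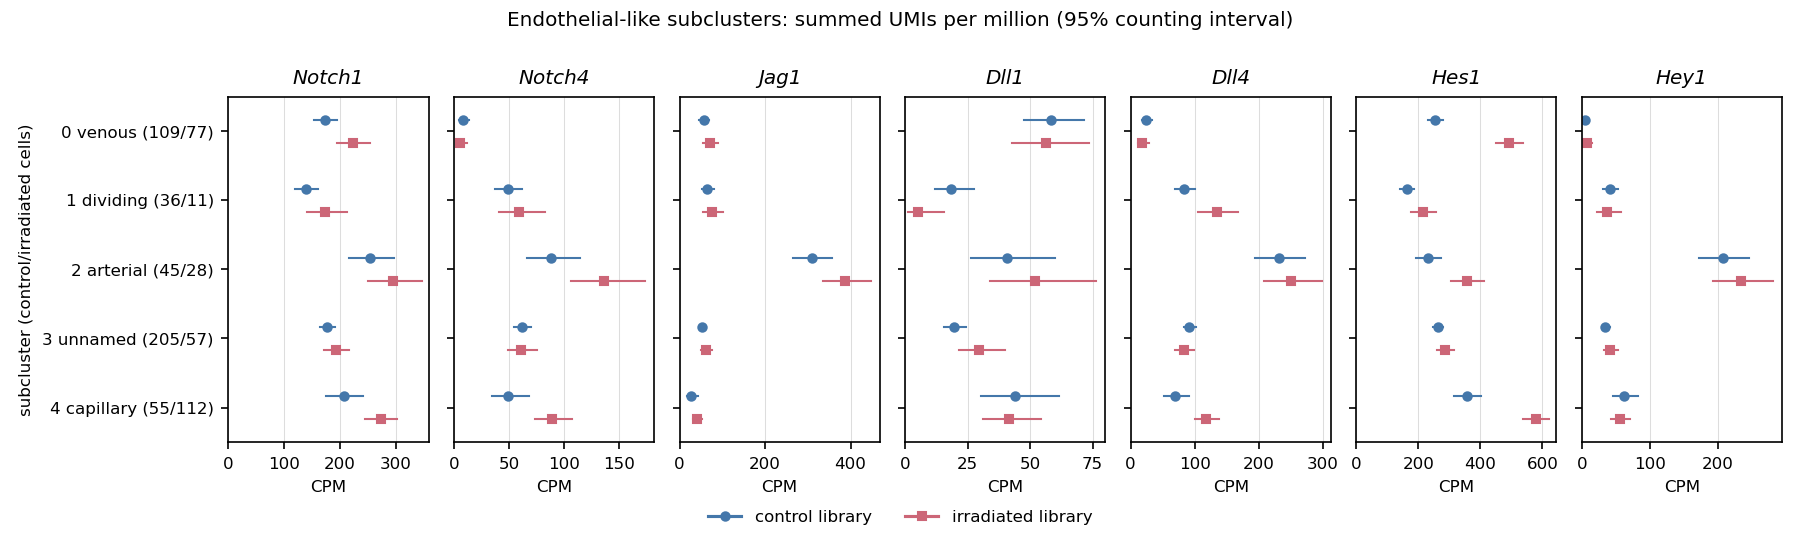
Notch genes in 5 endothelial subclusters, leaving out those led by marker genes of another class. The x axis is CPM, circles are the control and squares the irradiated library, lines are 95% counting intervals and cell numbers are in the labels. Jag1, Dll4 and Hey1 are highest in the arterial-like subcluster. Dll1 is highest in the venous-like one, by a small margin over the arterial-like one in the irradiated library. Hes1 is furthest apart in the venous-like subcluster (255 and 491 CPM).

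In pericytes and smooth muscle the main receptor was close to equal and a target was not. Notch3 was at 689 and 675 CPM (log2 ratio -0.03, -0.11 to 0.05), while Heyl was at 122 CPM (112 to 133) in the control library and 75.7 (66.8 to 85.3) in the irradiated one, called lower (-0.69, -0.91 to -0.47). Of the 7 members with at least 20 UMIs, 0 were called higher and 1 lower, against 7.52% and 6.39% of all genes. Heyl was called lower in 3 of 6 mural subclusters, for example at 86.9 and 50.6 CPM in the largest, and higher in 0. For these subclusters too the share of all genes called was not computed. With cells thinned to 2000 UMIs its ratio was -0.41 and not called. Hes1, another target in the same cells, was at 211 and 317 CPM (0.58, 0.45 to 0.71), just under 1.5-fold, and called higher in 4 of the 6 subclusters. Without the subcluster led by neutrophil and macrophage genes, Hes1 was at 212 and 342 CPM and called higher (0.69, 0.56 to 0.82). Hey1 was at 19.2 and 19.3 CPM (0.01, -0.47 to 0.49) and Jag1 at 155 and 191 (0.30, 0.15 to 0.46). Jag1 was called higher in the smooth muscle-like subcluster, at 216 and 358 CPM (0.73, 0.41 to 1.05). That subcluster made up 11.4% of control and 26.0% of irradiated mural cells. The immediate early gene sum of the class was 5140.3 and 6416 CPM, and its part in the Hes1 ratio was not tested.

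In mesenchymal cells, which include fibroblasts and tendon cells, Hes1 was at 122 CPM (119 to 125) in the control library and 219 (212 to 226) in the irradiated one, a log2 ratio of 0.84 (0.78 to 0.90). All 10 members had at least 20 UMIs, and 2 were called higher and 1 lower, against 11.7% and 7.41% of all genes. The called ligand was Dll1, at 1.55 and 2.33 CPM from 95 and 39 UMIs (0.59, 0.01 to 1.14), which was not called without the subclusters led by markers of other classes (0.56, -0.08 to 1.16). The called receptor was Notch4, at 2.14 and 1.13 CPM from 131 and 19 UMIs (-0.91, -1.69 to -0.21). Notch2 was at 111 and 107 CPM (-0.05, -0.12 to 0.03), and Jag1 at 35.5 and 36.0 (0.02, -0.11 to 0.15). The makeup of this class differed strongly. Most control cells lay in clusters 4 (with Ecrg4 and Prg4) and 13 (with Cxcl5 and Acta2), most irradiated cells lay in cluster 19 (with Serping1 and Mfap5), and an injury fibroblast-like subcluster held 31.5% of the control and 4.43% of the irradiated cells. With the subclusters weighted alike, Hes1 was at a log2 ratio of 0.42, Notch4 at -0.25 and Dll1 at -0.09, and none of the 3 was called. The immediate early gene sum was 3046 and 4127 CPM, and its part in the Hes1 ratio was not tested. It was also higher in classes where Hes1 was not called higher. These were Schwann cells (2995 and 4281), keratinocytes (3169 and 4332), macrophages and monocytes (5452 and 6261) and neutrophils (10472 and 11433). The sum was at 4537 and 4719.5 CPM in dendritic cells, 2419 and 2607 in osteoclasts and 3922 and 3641 in T and NK cells.

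Within the mesenchymal subclusters the targets differed in direction. In the fascial progenitor-like subcluster, with Pi16 and Clec3b, which held 222 control and 260 irradiated cells, Notch3 was at 27.8 and 11.8 CPM (log2 ratio -1.24, -1.72 to -0.77), Hey1 at 10.6 and 3.09 (-1.78, -2.72 to -0.91) and Heyl at 21.2 and 6.17 (-1.78, -2.42 to -1.17). All 3 were called lower, while Hes1 in the same cells was at 233 and 288 CPM (0.31, 0.18 to 0.43). Here too the share of all genes called in the subcluster was not computed. Over the 12 subclusters Notch3 was called lower in 2 and higher in 2, with 5 neither and 3 under 20 UMIs. The other lower call was in dividing cells (7.30 and 2.69 CPM, -1.44, -3.36 to -0.02). The higher calls were at 3.10 and 8.06 CPM in a subcluster with Cxcl5 and Crabp1 (1.38, 0.40 to 2.33) and at 1.80 and 4.11 in the tendon-like one described next (1.19, 0.01 to 2.34). In the tendon-like subcluster, with Tnmd, Kera and Fmod, Hes1 was at 61.8 and 119 CPM (0.94, 0.75 to 1.13) and called higher. Over the 12 subclusters Hes1 was called higher in 4 and lower in 0, with 7 neither and 1 under 20 UMIs, and it was called higher in 1 of the 5 main clusters. A small subcluster with Hpse2, Gpc5 and Igfbp3 (26 and 32 cells) stood apart, with Notch1 at 133 and 236 CPM, Jag1 at 141 and 69.2, Dll1 at 48.5 and 44.0 and Hey1 at 72.7 and 22.0. The mesenchymal class as a whole had 18.1 and 22.4 CPM of Notch1 and 1.55 and 2.33 of Dll1.

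In macrophages and monocytes Jag1 was at 16.9 CPM in the control library and 40.5 in the irradiated one, from 265 and 1029 UMIs, a log2 ratio of 1.26 (1.06 to 1.46). Of the 6 members with at least 20 UMIs, 2 were called higher and 0 lower, against 6.16% and 11.2% of all genes. Most control cells lay in clusters 7 and 11 and most irradiated cells in clusters 8, 11 and 12. In the irradiated library most of the Jag1, 807 of 1029 UMIs, lay in cluster 8, which leads with Cxcl3, Arg1 and Mmp12 and held 205 control and 562 irradiated cells. There it was at 54.6 and 144 CPM (1.39, 1.08 to 1.72). It was also called higher in the cluster with Ccl8, C1qc and Pf4 (15.7 and 24.1 CPM), and not in the 3 other clusters, where it stayed between 5.58 and 11.7 CPM in the control library. With the clusters weighted alike in both libraries, the Jag1 ratio was 0.96. Notch4 was at 1.60 and 3.62 CPM, from 25 and 92 UMIs, and called higher (1.18, 0.53 to 1.88). Cluster 8 again read highest, at 4.65 and 10.3. Endothelial markers summed to 101 CPM in the irradiated cells of the class and to slightly less in the control cells. Notch1 (40.7 and 45.5 CPM), Notch2 (210.5 and 225) and Hes1 (65.8 and 58.9) differed by less than 1.5-fold.

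In neutrophils 2 of the 4 members with at least 20 UMIs were called lower and 0 higher, in a class where 28.1% of all genes were called lower and 4.98% higher. Notch1 was at 41.7 and 25.4 CPM (log2 ratio -0.72, -1.09 to -0.34) and Hes1 at 30.1 and 15.1 (-0.99, -1.46 to -0.52), from 75 and 84 UMIs. Centred on the median ratio of the class, which was -0.38, Notch1 was at -0.33 and not called. It was also not called without doublet removal (-0.47), with cells thinned to 2000 UMIs (-0.65) or with the main clusters weighted alike (-0.45), and it was called in 0 of the 3 neutrophil clusters. Without doublet removal Hes1 was at -0.34 and not called. Notch2 was at 479 and 460.1 CPM (-0.06, -0.16 to 0.04). Most control neutrophils lay in cluster 27 and most irradiated ones in cluster 26. In dendritic cells Hes1 was at 23.2 and 8.68 CPM, from 47 and 21 UMIs, and called lower (-1.42, -2.23 to -0.65), as 1 of 5 members against 6.04% of all genes, with 0 called higher against 6.46%. In osteoclasts Hes1 was at 24.8 and 12.9 CPM, from 34 and 14 UMIs, and called lower, and Notch1 at 10.9 and 22.9 CPM, from 15 and 25 UMIs, and called higher, against 7.12% of all genes called lower and 5.78% higher. These were called in 3 of 7 and 3 of 6 other settings. In all 3 classes keratin RNA was also lower in the irradiated library, which was not particular to them. Where Hes1 was called higher, Krt14 read 176 and 33.3 CPM in endothelial cells and 239.5 and 129 in mesenchymal cells. Krt14 was at 417 and 103 CPM in neutrophils, 189 and 46.7 in dendritic cells and 588 and 57.8 in osteoclasts, and the summed keratinocyte markers were at 2936 and 1623, 1339 and 689, and 3196 and 573. Their part in the Hes1 ratios was not tested.

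Schwann cells, the glia of peripheral nerve, had 3 members called lower and 1 higher among the 6 with at least 20 UMIs, against 8.16% and 6.77% of all genes. Jag1 was at 130.1 and 64.5 CPM (log2 ratio -1.01, -1.38 to -0.66), Hey1 at 34.2 and 10.3 from 46 and 17 UMIs (-1.73, -2.62 to -0.90) and Heyl at 17.8 and 6.69 from 24 and 11 UMIs (-1.42, -2.59 to -0.33). Notch2 was at 65.4 and 104 CPM and called higher (0.67, 0.29 to 1.06), and Hes1 was at 303 and 290.1 (-0.06, -0.26 to 0.13). The Notch2 ratio was not called with cells thinned to 2000 UMIs (0.69) or as the mean of CPM per cell (0.39). The summed macrophage and monocyte markers of the Schwann class were at 852 and 1965 CPM, with C1qa at 7.44 and 101 and Lyz2 at 43.1 and 229, and their part in the Notch2 ratio was not tested. Nearly all Jag1 lay in the cluster with Csmd1, Tenm3 and Nkain2, at 145 and 75.8 CPM. The Schwann gene Sox10 (145 and 159 CPM) was present in both libraries. The summed keratinocyte markers of the class were at 2954 and 909.7 CPM and the mesenchymal ones at 10259 and 5452, and their part in the Jag1, Hey1 and Heyl ratios was not tested. In T and NK cells 0 of 4 members were called in either direction, against 6.15% of all genes called higher and 6.62% lower, with Notch1 at 80.3 and 64.3 CPM and Hes1 at 50.6 and 64.8. Lymphatic endothelial cells (55 and 44), too few for the level comparison, had 278 and 442 CPM of Hes1.

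The 49 other genes of the pathway covered ligand endocytosis, receptor glycosylation and cleavage, the nuclear complex, other targets, negative regulators and non-canonical ligands. In the same 6 classes, 236 of their 294 pairs had at least 20 UMIs, and 4 were called higher and 22 lower, with 210 neither, beside the background of 7.72% and 10.1%. The machinery for cutting the receptor gave few calls. Of 60 pairs of cleavage genes, 0 were called higher and 3 lower, and of 42 pairs of the nuclear complex, 0 were higher and 2 lower. Lfng, a glycosyltransferase that tunes which ligand Notch responds to, was at 4.88 and 9.78 CPM in keratinocytes (log2 ratio 1.00, 0.77 to 1.23), and Dlk2, a non-canonical ligand, at 7.04 and 11.9 (0.76). The other 2 higher calls were of Dner, a neuronal ligand: in mesenchymal cells (0.588 and 2.21 CPM, 1.91) and, outside the rule for named genes and picked after its values were seen, in macrophages and monocytes (1.92 and 3.11, 0.70).

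Called lower were 4 of 11 pairs of other targets, 4 of 13 of non-canonical ligands and 6 of 51 of negative regulators. By class, 6 of 30 other pathway genes were lower in neutrophils (28.1% of all genes) and 7 of 42 in macrophages and monocytes (11.2%). The counts were 4 of 45 in keratinocytes (8.41%), 3 of 45 in mesenchymal (7.41%), 1 of 42 in endothelial (5.45%) and 1 of 32 in dendritic cells (6.04%). For all genes beyond the members, Dner included, single ratios were not recomputed with subclusters weighted alike. Differences in class makeup, which were strong in mesenchymal cells, were therefore not separated from these ratios. Nrarp, a target that feeds back on the Notch complex, was at 2.45 and 1.01 CPM in mesenchymal cells (log2 ratio -1.27), 2.75 and 1.42 in macrophages and monocytes (-0.96) and 10.0 and 1.98 in neutrophils (-2.34). In T and NK cells it was at 14.8 and 59.1 CPM, from 12 and 125 UMIs, and called higher (2.00, 1.14 to 2.99). Dlk1, known from immature mesenchyme, was at 4.26 and 0.418 CPM in mesenchymal cells (-3.35, -4.68 to -2.29), and at 83.0 and 25.6 in pericytes and smooth muscle (-1.70, -2.05 to -1.36). In keratinocytes Dlk1 had 23 and 1 UMIs. Egfl7, an endothelial secreted factor, was at 6.51 and 2.09 CPM in mesenchymal cells (-1.64) and 3.00 and 1.38 in macrophages and monocytes (-1.13). Hey2, a relative of Hey1, was at 0.617 and 0.311 CPM in keratinocytes (-0.99). The ubiquitin ligase Nedd4 was at 18.3 and 5.11 CPM in macrophages and monocytes (-1.84, -2.15 to -1.53) and at 22.1 and 4.68 in neutrophils (-2.24). Neurl1b, which helps ligand endocytosis, was at 1.66 and 0.629 CPM in macrophages and monocytes (-1.40). In neutrophils the gamma-secretase subunit Psen2 had a ratio of -1.19 (-1.64 to -0.74) and the acetyltransferase Kat2b was at 72.6 and 31.9 CPM (-1.19). Numbl, an inhibitor of Notch, was the 1 pathway gene beyond the members called in endothelial cells, at 13.8 and 9.18 CPM (-0.59). Maml3, a co-activator that joins the Notch complex, was at 223 and 141 CPM in pericytes and smooth muscle (-0.66), 161 and 96.9 in T and NK cells (-0.73) and 119 and 212 in osteoclasts (0.84). Spen, a co-repressor partner of RBPJ, was at 43.4 and 28.5 CPM in dendritic cells (-0.61) and 59.1 and 35.8 in osteoclasts (-0.72). Furin, which cuts the receptor precursor, was at 140.0 and 241 CPM in osteoclasts (0.79). The gamma-secretase subunits Ncstn (34.6 and 18.9 CPM, -0.87) and Aph1a (65.4 and 42.5, -0.62) were called lower in T and NK cells, and the inhibitor Numb in Schwann cells (217 and 144, -0.59). In these smaller classes 2 of 39 other pathway genes were lower in pericytes and smooth muscle (6.39% of all genes). In T and NK cells 3 of 32 were lower (6.62%) and 1 higher (6.15%), and in Schwann cells 1 of 36 was lower (8.16%). In osteoclasts 2 of 30 were higher (5.78%) and 1 lower (7.12%).

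Detection of member pairs in the same cell was counted after thinning to 2000 UMIs, as a description with exact binomial (Clopper-Pearson) intervals. Among endothelial cells with a Jag1 UMI, 16.9% (8.76 to 28.3) of 65 control and 20.9% (10.0 to 36.0) of 43 irradiated cells also had a Hey1 UMI, against 6.72% (4.70 to 9.26) and 6.25% (3.80 to 9.59) of cells without Jag1, and the intervals overlapped in the control library only. Without the subclusters led by markers of other classes this turned round: 21.6% (11.3 to 35.3) against 6.91% (4.60 to 9.89) of control cells did not overlap, and 20.6% (8.70 to 37.9) against 6.50% (3.76 to 10.3) of irradiated cells did. With Dll4 in place of Jag1 the shares were 12.5% against 7.21% in the control and 18.9% against 6.12% in the irradiated library, with overlapping intervals in both. Without those subclusters the irradiated intervals no longer overlapped, at 20.5% (9.80 to 35.3) against 5.93% (3.28 to 9.75). Jag1, Dll4 and Hey1 were all highest in the arterial-like subcluster. Pairs were not counted within single subclusters of any class. The shares therefore do not separate membership of a subcluster from pairing within a cell. In keratinocytes, Hes1 was found in 34.3% (29.9 to 39.0) of control cells with a Notch1 UMI and 25.3% (23.2 to 27.5) of those without, and in 34.9% (30.9 to 39.0) and 25.4% (22.2 to 28.8) in the irradiated library. The share of Hes1 among Notch1-positive cells was similar although more cells had a Notch1 UMI. In pericytes and smooth muscle, Heyl was found in 22.0% (16.3 to 28.5) of control cells with Notch3 and 14.5% (7.45 to 24.4) of those without, with overlapping intervals. The intervals also overlapped in both libraries for Dll4 with Notch4 and Notch1 with Hey1 in endothelial cells, Notch3 with Hes1 and with Jag1 in mural cells, and Jag1 with Hes1 in keratinocytes.

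Across the 20 class-by-library sums, the genes whose levels were most like each member's on the log2(CPM + 1) scale were taken from 13412 genes. Points of the same library share depth and free RNA, so these correlations are descriptions. Among the receptors, Notch1 was most like Tppp, Acot9 and Wdr59 (r = 0.88, 0.86 and 0.85), Notch2 like Cd44, Cers6 and Rnf149 (0.96, 0.90 and 0.89), Notch3 like Ccdc68, Susd2 and Parm1 (0.94, 0.94 and 0.92) and Notch4 like Rtp3, Acr and Tmem252 (0.91, 0.90 and 0.89). Among the ligands, Jag1 was most like Plekhh3, Atp9a and Tnks1bp1 (0.92, 0.91 and 0.90), Dll1 like Eva1a, Rassf9 and Rhbdl2 (0.97, 0.96 and 0.94) and Dll4 like Gm14207, Syt15 and Lhx6 (0.90, 0.89 and 0.89). Among the targets, Hes1 was most like Ptk2, Dvl1 and Atp9a (0.93 each), Hey1 like Sorbs2, Hoxd8 and Tmem47 (0.95 each) and Heyl like Hey2, Ppfia2 and Cabp1 (0.97, 0.97 and 0.96), Hey2 being a target of the same family. Among the members themselves the closest pairs were Jag1 with Hes1 (0.95) and Hes1 with Hey1 (0.85), and Notch2 was inverse to each of the other 9, from -0.53 to -0.77.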

How the data were processed

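Single-cell 3' v3 libraries of the 2 groups were made with 10x Genomics chemistry and counted with Cell Ranger 5.0.1 on mm10, per the file headers and the submitters' processing notes. The matrices deposited by the authors hold raw UMI counts for each barcode and gene, with 11369 barcodes and 180080740 UMIs in the control library and 8302 barcodes and 111753092 UMIs in the irradiated one. Barcodes with at least 500 genes, at least 1000 UMIs, at most 10% mitochondrial UMIs and a Scrublet doublet score under 0.25 were kept, and 490 and 145 doublets were removed.

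Cells were clustered with scanpy 1.11.5 (2000 variable genes without the 59 pathway genes, 30 components, 15 neighbours, Leiden resolution 1.0). A cluster was named from 3 or more markers that reached 50 CPM and exceeded the median cluster 2-fold. The strength this naming required and its treatment of related lineages were set after the clusters were seen, as was the rule for subclusters led by another class (at least 3 such markers among the top 10 genes). UMIs were summed per class and library, scaled to 1000000 UMIs (CPM). Levels have exact Poisson and ratios exact conditional 95% intervals. The ratio intervals were run on simulated Poisson counts, the model they assume. That check says nothing of spread between cells or mice. No test between groups was possible with 1 library each.

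The text names all 10 members in each class where they had a result, up to 4 called genes of the other 49 per class by size of ratio, and the genes most like each member. The members and gene lists were chosen with earlier results of these data known. Promoters came from RefSeq (GRCm38.p6) and positions from GENCODE M21, with 59 of 59 symbols matched. Alternatives covered cell filters, doublets, clustering, scaling, depth and composition.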

Additional observations from a re-analysis of the deposited data

Results flagged for a closer look

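Among the 6 classes with 200 or more cells of each library, the ratio of irradiated to control was called in opposite directions in different classes for 3 members. With 1 library per group these differences between classes were not tested. Notch1 was higher in keratinocytes (log2 ratio 1.16) and lower in neutrophils (-0.72), where it was called in 9 of 13 other settings and in 0 of 3 clusters. Notch4 was higher in macrophages and monocytes (1.18) and lower in mesenchymal cells (-0.91), at levels under 4 CPM in both classes. Hes1 was higher in mesenchymal (0.84) and endothelial cells (0.76) and lower in neutrophils (-0.99) and dendritic cells (-1.42). The mesenchymal Hes1 and Notch4 ratios were not called with subclusters or main clusters weighted alike. Neutrophil Hes1 was not called without doublet removal or as the mean of CPM per cell. Dendritic Hes1 was not called with cells thinned to 2000 UMIs. With the smaller classes counted, Jag1 was also higher in macrophages and monocytes (1.26) and lower in Schwann cells (-1.01), and Hey1 higher in endothelial cells (0.59) and lower in Schwann cells (-1.73). The endothelial Hey1 ratio was called in 5 of 15 other settings.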

How the results depend on the processing

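No paired analysis was possible because each group had 1 library. For 8 of the members the leading class was the same in both libraries, and the number was 8 or 9 under all 10 alternatives run for it. The 8 member ratios called higher became 5 with cells thinned to 2000 UMIs, 4 with subclusters weighted alike and 5 with main clusters weighted alike, and ranged from 6 to 10 otherwise. The 5 called lower became 1 with thinned cells and ranged from 4 to 7 otherwise. The 4 other pathway genes called higher became 7 with ratios centred on the class median and 8 with the mean of CPM per cell, and the 22 called lower ranged from 16 to 25. By construction, thinning removes UMIs and leaves out cells under 2000 UMIs, and weighting removes differences in makeup. The cause of each of these shifts was not tested. Of 20 called member ratios in the 10 classes, 7 were called under every setting that gave a value: Notch1 in keratinocytes (1.10 to 1.42), Jag1 (0.96 to 1.39) and Notch4 (0.77 to 2.06) in macrophages and monocytes, Hes1 in endothelial cells (0.59 to 1.03), and Jag1 (-2.42 to -0.97), Hey1 (-1.79 to -1.41) and Heyl (-1.67 to -1.36) in Schwann cells. Hey1 in endothelial cells (0.09 to 0.62) was called in 5 of 15 settings. Dll1 in mesenchymal cells was called in 7 of 15 and turned to -0.09 with subclusters weighted alike. The strict cell filter left no dendritic class, and several settings left no osteoclast class. Leaving out subclusters led by another class and weighting main clusters were chosen after seeing the data.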
